A study of Mus musculus with 6 samples.

Results

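The 40 genes described here are a cell cycle and proliferation module of the mouse cochlea, 17 of which act in the G1/S transition and DNA replication and 23 in G2, mitosis and the regulation of both. They were chosen by symbol and make up 40 of the 51802 gene symbols listed for each sample. All 40 were present and all 40 were among the 17136 genes with enough reads to be tested. Bulk RNA-seq had been run on RNA of cochleae from mice at 2 months of age, 3 samples of wildtype (replicates 3, 4 and 5) and 3 of *Pou4f3(Δ/+)* (replicates 1, 2 and 3), all on the C57/BL6J background, which per the study carries the *Cdh23(ahl)* hearing loss allele in both groups. *Pou4f3(Δ/+)* mice carry 1 wildtype allele and 1 knock-in allele of *Pou4f3*, a transcription factor gene needed by hair cells, in all cells of the body. The knock-in has a small deletion with a base change, copies a human DFNA15 deafness allele and encodes a truncated protein. Whether a sample held 1 animal or several was not given in the sources used here, so the p-values below measure only the spread between these samples.

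Cells that divide pass from G1 into S phase, when E2F transcription factors switch on the genes of origin licensing, nucleotide supply and the replication fork, and then through G2 into mitosis, when MuvB, B-MYB (*Mybl2*) and FOXM1 switch on the genes of the spindle, the kinetochore and mitotic exit. The RNA of these genes is low in cells that have left the cycle, which is why it is widely used as a sign of proliferation. Hair cells and supporting cells of the adult mammalian cochlea are known to divide little or not at all, while blood cell precursors in bone marrow divide rapidly, and the cochlea lies in a bony capsule.

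The 6 samples held 14295069 to 17696784 summed estimated counts. *Pou4f3* itself had 52 to 97 counts per sample, and its count adds both alleles and so gives no check of the genotype labels. The 8 hair cell markers looked at (among them *Myo7a*, *Otof* and *Ocm*) were all detected, with a mean log2 CPM (counts scaled to a common library size with TMM factors and a prior count of 2) of 3.28 to 3.42 per sample. Every pair of samples differed by more than sampling noise (chi-square of 7.10 to 26.0 per degree of freedom). Wildtype replicate 5 stood apart in the genes described here, being the lowest of the 6 samples for 38 of the 40. *Pou4f3(Δ/+)* replicates 1 and 2 were the highest samples in erythroid, precursor B cell and T and NK cell markers, but not in granulocyte progenitor markers, as given further on. The fitted differences of the 40 genes are therefore given with and without wildtype replicate 5.

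Proliferation genes were well expressed in these 2-month cochleae. The FPKM (counts divided by transcript length and library size, then summed over the transcripts of a gene), the scale on which levels of different genes can be compared, averaged over the 6 samples from 2.24 for *Kif11* to 152 for *Pcna*, with a median of 33.6 over the 40 genes. Of the 40, 38 reached a mean of 10 FPKM, and the median member stood at the 84.8 percentile of the genes tested. The highest mean FPKM levels were those of *Pcna* (152), the sliding clamp of the replication fork, *Mki67* (126), which encodes the Ki-67 coat protein of mitotic chromosomes, *Ube2c* (117), the ubiquitin-conjugating enzyme of the anaphase-promoting complex, and *Top2a* (107), the topoisomerase that untangles sister chromatids. The next were *Rrm2* (85.2), *Ccna2* (79.3) and *Rrm1* (77.9). Transcripts with few counts add to these sums, and the order depends on them. The transcript of *Top2a* with the most counts, 93.9% of them, had 76.7 FPKM alone. Those of *Rrm2*, *Ccna2* and *Rrm1* had 83.2, 77.6 and 58.4. At the low end, *E2f1*, an activator of S phase genes, had a mean of 7.0 FPKM, and *Kif11*, the motor that pushes the spindle poles apart, stood below every other member. For comparison on the same scale, *Ocm*, which had the highest mean FPKM of the 8 hair cell markers, averaged 26.2 FPKM.

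**Figure D1:**
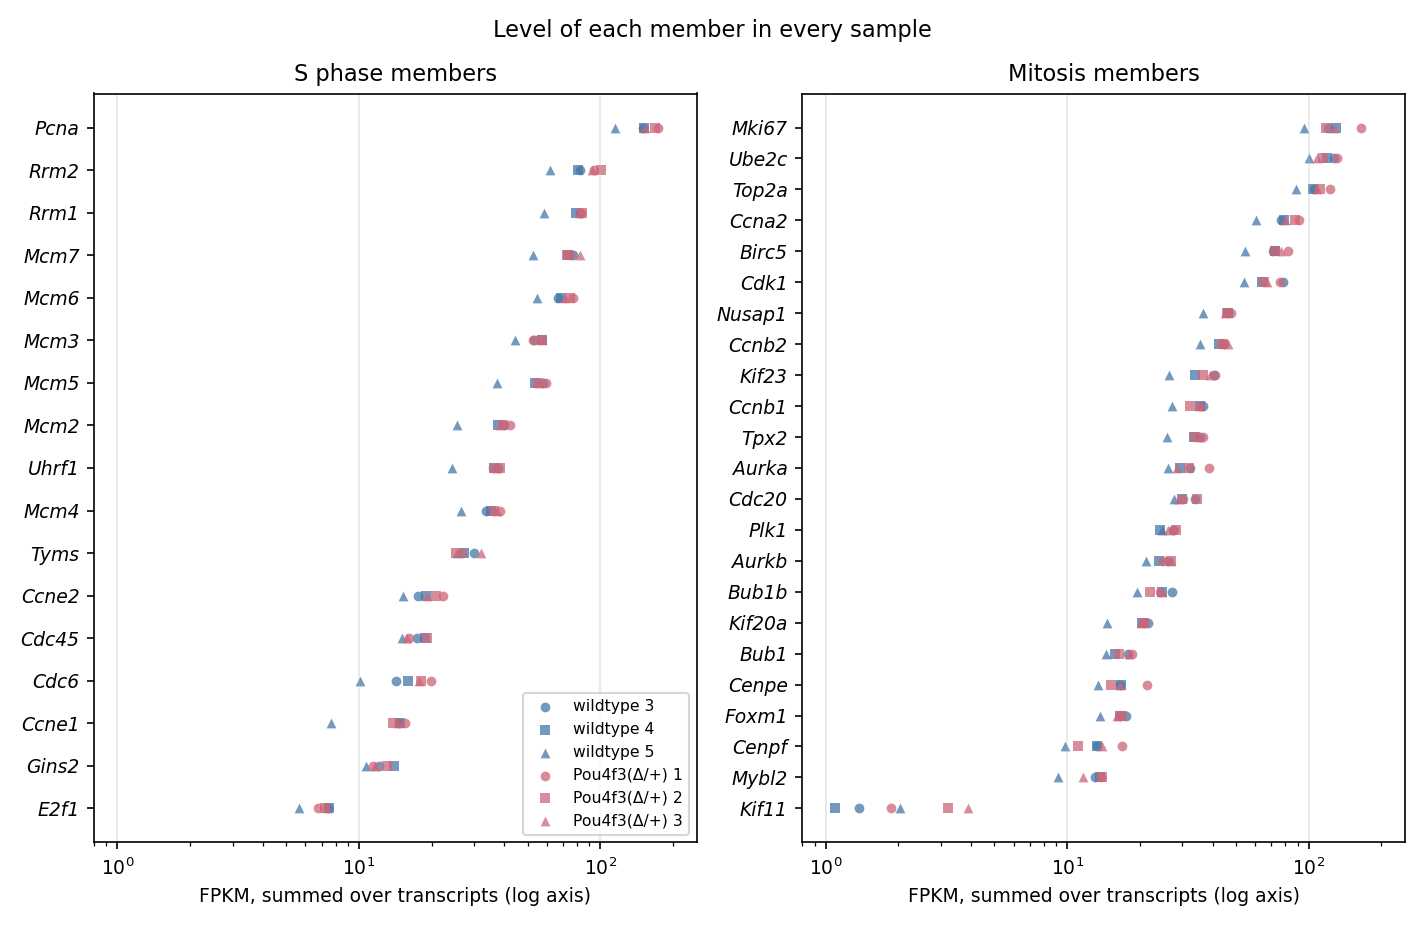
FPKM of each of the 40 genes in each of the 6 samples (log axis, genes ordered by mean, S phase genes left and mitosis genes right, 3 wildtype samples in blue and 3 *Pou4f3(Δ/+)* samples in red). The samples of a gene lie close together against the spread between genes, wildtype replicate 5 is the leftmost point of most rows, and *Kif11* is the lowest gene.

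Genes of one phase are known to share promoter elements, and these were searched for in the members. RefSeq promoter entries (GRCm38.p6) were matched by symbol for 32 of the 40 members, 14 S phase and 18 mitosis genes; the members without an entry were *Aurkb*, *Ccna2*, *Ccne2*, *Foxm1*, *Gins2*, *Kif20a*, *Mcm4* and *Tpx2*. The 150 bases before the listed start were searched on both strands for the cell cycle genes homology region or CHR (TTTGAA or TTTAAA), which binds MuvB complexes, for an E2F site (TTTCCCGC, TTTCGCGC, TTTGCCGC or TTTGGCGC) and for the CCAAT box (CCAAT), which binds NF-Y. No letters of one motif lie within another, but matches may overlap on the sequence. A CHR match was found in 8 of 18 mitosis members and 2 of 14 S phase members, against 14.9% of the 27025 genes with a promoter entry. An E2F match was found in 1 of 18 and 3 of 14, against 1.26%, and a CCAAT match in 15 of 18 and 9 of 14, against 25.3%. In the whole entry, from 250 bases before to 50 after the start, the counts were 15 of 18 and 5 of 14 for CHR (27.8% of all genes), 1 of 18 and 5 of 14 for E2F (2.32%) and 15 of 18 and 10 of 14 for CCAAT (37.9%). Matching letters are a description and not a bound site. Shown here are the 150 bases of the 6 members that are described with values in every sample and hold a CHR or E2F match, 5′ to 3′ on the gene's strand, with the CHR letters, or in *Cdc6* the E2F letters, in capitals. They are *Cdc6* (chr11:98908001-98908150, plus strand), *Ccne1* (chr7:38107491-38107640, minus), *Kif11* (chr19:37376232-37376381, plus), *Top2a* (chr11:99024190-99024339, minus), *Mki67* (chr7:135716380-135716529, minus) and *Ube2c* (chr2:164769779-164769928, plus).
Cdc6: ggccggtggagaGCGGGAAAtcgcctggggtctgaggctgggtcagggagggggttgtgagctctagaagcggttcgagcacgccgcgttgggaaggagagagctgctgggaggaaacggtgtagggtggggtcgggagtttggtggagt
Ccne1: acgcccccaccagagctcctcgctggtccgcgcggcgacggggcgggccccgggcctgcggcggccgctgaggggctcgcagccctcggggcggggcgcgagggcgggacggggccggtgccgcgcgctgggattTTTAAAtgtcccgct
Kif11: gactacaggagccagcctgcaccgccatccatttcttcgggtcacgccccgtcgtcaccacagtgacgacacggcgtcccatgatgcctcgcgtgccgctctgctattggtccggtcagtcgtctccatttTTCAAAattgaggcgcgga
Top2a: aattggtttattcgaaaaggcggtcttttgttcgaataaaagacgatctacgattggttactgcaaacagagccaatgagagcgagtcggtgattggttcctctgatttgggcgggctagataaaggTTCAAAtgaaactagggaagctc
Mki67: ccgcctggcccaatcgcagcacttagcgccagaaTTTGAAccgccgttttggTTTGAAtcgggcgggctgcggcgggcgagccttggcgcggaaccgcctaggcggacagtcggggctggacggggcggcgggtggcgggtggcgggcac
Ube2c: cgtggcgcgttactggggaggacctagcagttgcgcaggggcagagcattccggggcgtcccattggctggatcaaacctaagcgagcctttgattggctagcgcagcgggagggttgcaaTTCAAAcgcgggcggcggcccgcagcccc
The match begins 138 bases before the listed start in *Cdc6*, 15 in *Ccne1*, 19 in *Kif11*, 23 in *Top2a* and 29 in *Ube2c*. *Mki67* has a pair of CHR matches that begin 116 and 98 bases before its listed start. The listed starts are not always the ends of the genes in GENCODE M21. There *Cdc6* begins at 98907801, *Ube2c* at 164769898 and, on the minus strand, *Ccne1* at 38107534. The capital letters of these genes therefore lie inside the gene as GENCODE bounds it. *Top2a* also holds 4 CCAAT boxes in either orientation, *Ube2c* 2, *Kif11* and *Mki67* 1 each, and *Cdc6* and *Ccne1* none.

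Averaged over the module, the genes were higher in the *Pou4f3(Δ/+)* samples by 0.19 log2 units with all 6 samples and by 0.08 without wildtype replicate 5. With the median over the 40 genes in each sample in place of the mean, the difference with all 6 samples was 0.06. In bulk samples such as these, the number of cycling cells and the amount of this RNA per cell cannot be told apart. The mean log2 CPM of the 17 S phase genes was 6.47, 6.47 and 6.04 across wildtype replicates 3 to 5 and 6.55, 6.55 and 6.50 across *Pou4f3(Δ/+)* replicates 1 to 3. That of the 23 mitosis genes was 6.50, 6.40 and 6.18 in the wildtype and 6.59, 6.52 and 6.49 in the *Pou4f3(Δ/+)* samples. Wildtype replicate 5 was lowest in both lists. For S phase all 3 *Pou4f3(Δ/+)* samples lay above all 3 wildtype samples, by as little as 0.03 log2 units between the nearest samples, while for mitosis wildtype replicate 3 lay above *Pou4f3(Δ/+)* replicate 3. The group means of the S phase genes were 6.33 ± 0.25 (SD, n = 3) in wildtype and 6.53 ± 0.03 (n = 3) in *Pou4f3(Δ/+)*, a difference of 0.21 with a pooled SD of 0.18. Those of the mitosis genes were 6.36 ± 0.16 and 6.53 ± 0.05 (n = 3 each), a difference of 0.17 with a pooled SD of 0.12, or 0.11 with the median over genes. Over all 40 genes the difference of 0.19 is 1.14-fold in CPM. Without wildtype replicate 5 the differences were 0.07 for S phase and 0.08 for mitosis. For S phase, mitosis and all 40 genes that sample lay 0.47, 0.32 and 0.38 below the mean of the other 5 samples. No p-value is given for these means, since the genes were chosen with earlier results of the data known.

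**Figure D2:**
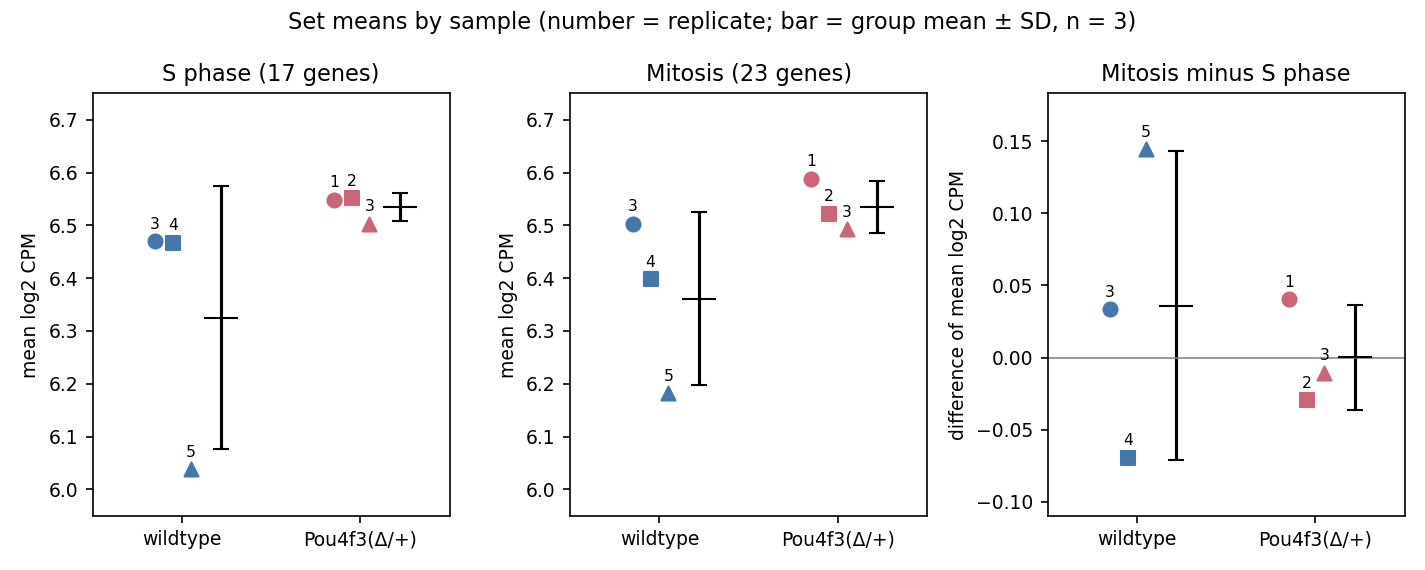
Mean log2 CPM of the 17 S phase genes (left) and of the 23 mitosis genes (middle), and the mitosis mean minus the S phase mean (right), in each sample; points are samples numbered by replicate, and bars are the group mean ± SD (n = 3). Wildtype replicate 5 lies at 6.04 and 6.18, below all other samples, and has the highest mitosis minus S phase value, 0.14.

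The gap between the S phase and mitosis means is read here only across samples, since CPM is not scaled to transcript length and the lists hold different genes. The mitosis mean minus the S phase mean was 0.03, -0.07 and 0.14 across wildtype replicates 3 to 5 and 0.04, -0.03 and -0.01 across *Pou4f3(Δ/+)* replicates 1 to 3. The groups overlapped, and their means differed by -0.04 (*Pou4f3(Δ/+)* minus wildtype, pooled SD 0.08), a difference that turned to 0.02 without wildtype replicate 5. In that sample, where both lists were lowest, the S phase genes lay further below the other samples than the mitosis genes did.

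The low level of wildtype replicate 5 was seen gene by gene, a feature singled out after the values were seen. It was the lowest sample for 17 of 17 S phase genes and 21 of 23 mitosis genes, and wildtype replicate 4 was the lowest for the other 2, *Plk1* and *Kif11*. Over all genes tested, wildtype replicate 5 was the lowest of the 6 for 19%. As log2 CPM minus the gene's own median over the 6 samples, the median member stood at -0.36 in wildtype replicate 5 (S phase -0.43, mitosis -0.31), against -0.03 to 0.09 in the other 5 samples. *Ccne1*, whose product cyclin E1 activates CDK2 at the entry to S phase, was the furthest below, at -0.87. Its log2 CPM was 4.81, 4.83 and 3.94 across wildtype replicates 3 to 5 and 4.88, 4.75 and 4.82 across *Pou4f3(Δ/+)* replicates 1 to 3, so that 5 samples lay within 0.13 of one another and wildtype replicate 5 lay alone. Its fitted log2 fold change was 0.24 (SE 0.21) with all samples and 0.00 without that one. *Cdc20*, *Plk1* and *Gins2* were the members that were least low in wildtype replicate 5 apart from *Kif11*, which was the only one above its median there. At the other end *Pou4f3(Δ/+)* replicate 1 was the highest sample for 19 members, against 17.1% of all genes, among them *Mki67*, *Cenpe* and *Cenpf*.

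**Figure D3:**
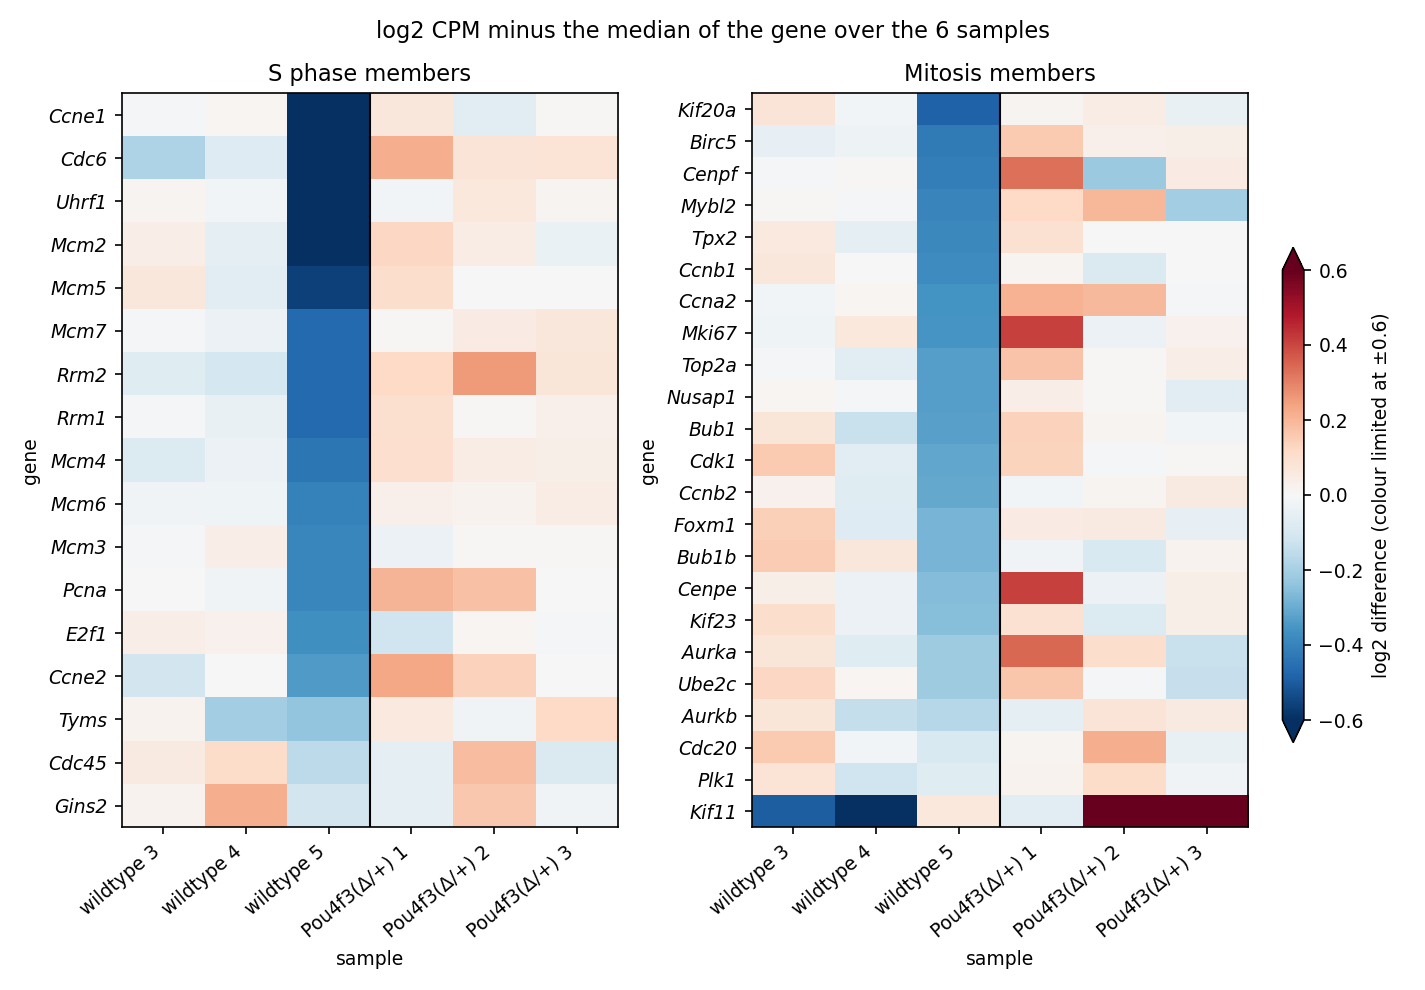
log2 CPM of each gene minus its median over the 6 samples (colour, limited at ±0.6; blue lower, red higher), with S phase genes left and mitosis genes right, ordered by their value in wildtype replicate 5, and a line between the genotypes. The column of wildtype replicate 5 is blue for all rows but *Kif11*, and no other column is of 1 colour.

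None of the 40 genes passed the test between the genotypes, which with 3 samples per group can miss small differences. edgeR's quasi-likelihood test with Benjamini-Hochberg adjustment over the 17136 genes called 0 members at an adjusted p under 0.05, and 0% of all genes, the members' adjusted p-values being 0.643 to 0.981. DESeq2 also called 0 members, against 0.374% of all genes, and limma on log2 FPKM called 0. At an unadjusted p under 0.05 edgeR had 4 members, all higher in *Pou4f3(Δ/+)*, against 3.5% of all genes in that direction and 7.64% in both, and DESeq2 had 7, also all higher, against 3.16% of all genes in that direction and 6.73% in both. The fitted log2 fold change was above 0 for 38 of the 40 genes, against 49.4% of all genes, with a median of 0.20 for S phase and 0.13 for mitosis genes, and below 0 for *Gins2* (-0.02) and *Bub1b* (-0.02). All 3 *Pou4f3(Δ/+)* samples lay above all 3 wildtype samples for 9 members and below for 0, against 6.07% and 6.59% of all genes, or 12.7% in both directions. Without wildtype replicate 5 the fitted log2 fold change was above 0 for 27 of the 40, against 49.7% of all genes, with medians of 0.06 and 0.05, and 3 members, *Cdc6*, *Rrm2* and *Kif11*, had an unadjusted p under 0.05, against 4.33%.

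**Figure D4:**
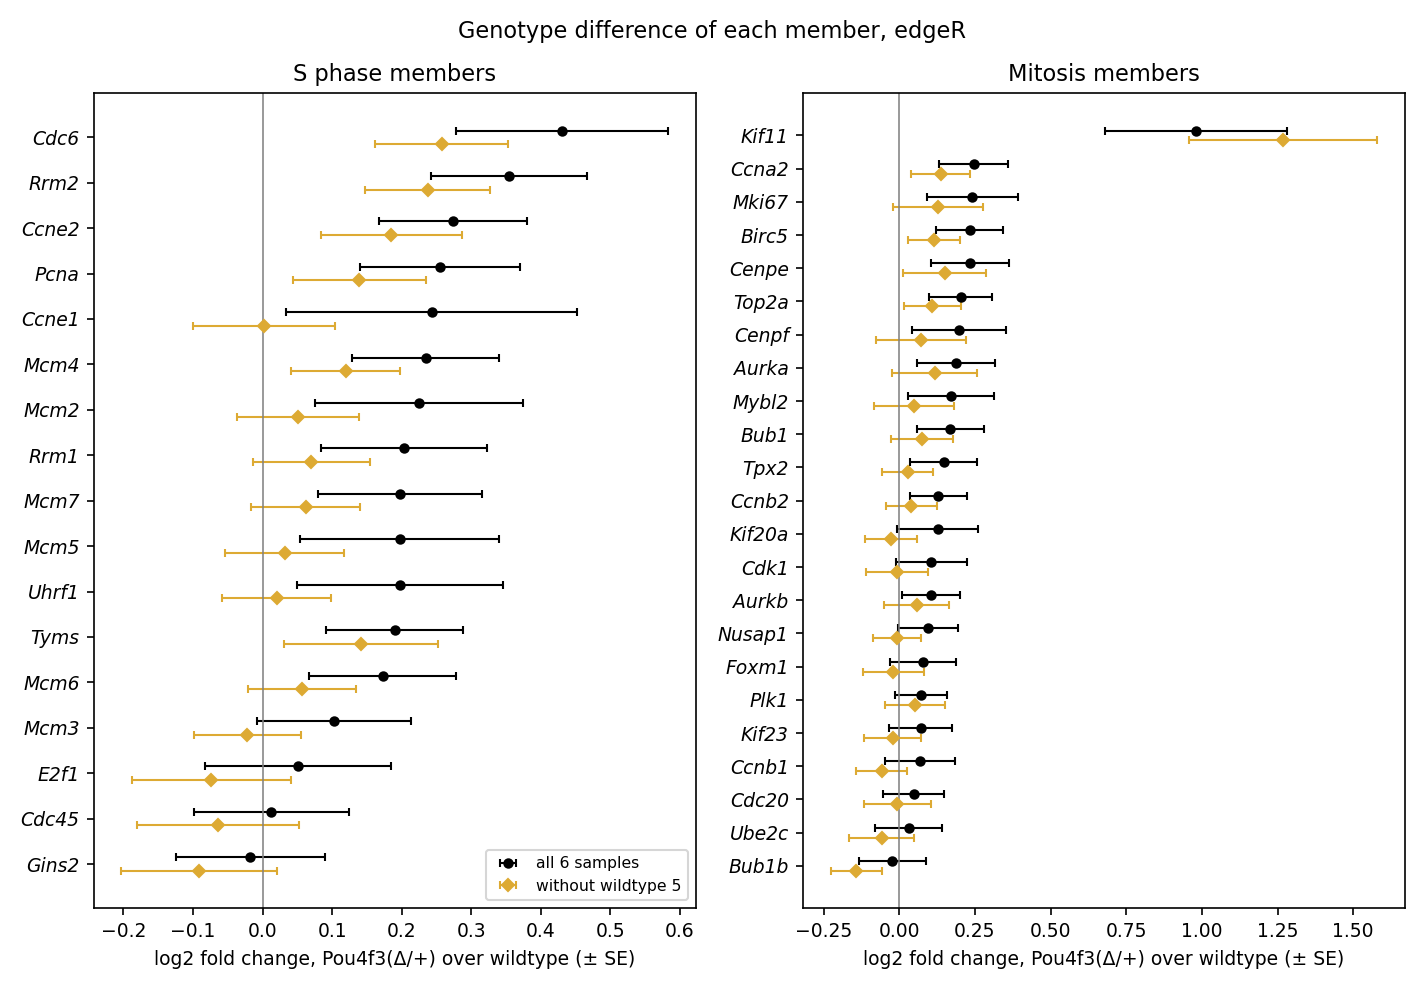
Fitted log2 fold change of each gene, *Pou4f3(Δ/+)* over wildtype, with its standard error, from edgeR with all 6 samples (black circles) and without wildtype replicate 5 (yellow diamonds); the panels have different x axes. With all samples 38 of 40 genes lie right of 0, without wildtype replicate 5 27 do, and only *Kif11* moves to the right.

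Among the S phase genes the smallest unadjusted p-values were those of *Rrm2*, *Cdc6* and *Ccne2*, which act in nucleotide supply, origin licensing and the entry to S phase. *Rrm2* (chromosome 12, 24708241 to 24714146, GRCm38), the small subunit of ribonucleotide reductase, had a log2 CPM of 7.47, 7.44 and 7.08 across wildtype replicates 3 to 5 and 7.66, 7.80 and 7.61 across *Pou4f3(Δ/+)* replicates 1 to 3. The *Pou4f3(Δ/+)* samples were all higher, and the log2 fold change was 0.35 (SE 0.11, unadjusted p = 0.0119, adjusted p = 0.643 from edgeR), or 0.24 without wildtype replicate 5. *Rrm1* (chromosome 7, 102441695 to 102469771), the large subunit, had 8.01, 7.97 and 7.55 and 8.11, 8.02 and 8.04 log2 CPM in the same order. Its groups did not overlap either, though wildtype replicate 3 and *Pou4f3(Δ/+)* replicate 2 were only 0.02 apart, and its log2 fold change was 0.20 (SE 0.12), or 0.07 without wildtype replicate 5. *Tyms*, which makes thymidylate, had a log2 fold change of 0.19 (SE 0.10), or 0.14 without wildtype replicate 5, and a difference of 0.02 on log2(FPKM + 0.5).

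*Cdc6* (chromosome 11, 98907801 to 98923940), the origin licensing factor that loads the MCM helicase, had the largest fitted difference of the S phase genes. Its log2 CPM was 5.56, 5.66 and 5.02 in the wildtype and 5.96, 5.82 and 5.82 in the *Pou4f3(Δ/+)* samples. The groups did not overlap, and wildtype replicate 5 lay furthest out. The log2 fold change was 0.43 (SE 0.15, unadjusted p = 0.0202, adjusted p = 0.643 from edgeR), or 0.26 without that sample. Of the 6 subunits of the MCM helicase, *Mcm4* (chromosome 16, 15623897 to 15637400) had the smallest p, with a log2 CPM of 6.93, 6.97 and 6.58 in wildtype and 7.11, 7.05 and 7.05 in *Pou4f3(Δ/+)* and a log2 fold change of 0.23 (SE 0.11). The other subunits had 0.22 (*Mcm2*), 0.20 (*Mcm5*), 0.20 (*Mcm7*), 0.17 (*Mcm6*) and 0.10 (*Mcm3*), with standard errors of 0.11 to 0.15. The *Pou4f3(Δ/+)* samples lay above all wildtype samples for *Mcm4*, *Mcm6* and *Mcm7* and not for the other subunits. Without wildtype replicate 5 the 6 subunits had -0.02 to 0.12. *Cdc45* and *Gins2*, the helicase's partners at the moving fork, had log2 fold changes of 0.01 (SE 0.11) and -0.02 (SE 0.11), and were the S phase genes nearest to 0. They had -0.06 and -0.09 without wildtype replicate 5.

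*Ccne2* (chromosome 4, 11191351 to 11204779), which encodes cyclin E2, had a log2 CPM of 5.66, 5.77 and 5.44 in wildtype and 6.01, 5.91 and 5.78 in *Pou4f3(Δ/+)*. Wildtype replicate 4 and *Pou4f3(Δ/+)* replicate 3 were 0.01 apart, so that the groups barely parted, and the log2 fold change was 0.27 (SE 0.11, unadjusted p = 0.0301, adjusted p = 0.643 from edgeR), or 0.19 without wildtype replicate 5. *Pcna* (chromosome 2, 132249162 to 132253314) had 7.83, 7.81 and 7.44 in wildtype and 8.03, 8.0 and 7.83 in *Pou4f3(Δ/+)*. *Pou4f3(Δ/+)* replicates 1 and 2 were above the rest and replicate 3 lay level with wildtype replicate 3, and the log2 fold change was 0.26 (SE 0.12). *Uhrf1*, which carries DNA methylation through replication, had 0.20 (SE 0.15), and *E2f1* had 0.05 (SE 0.13). Without wildtype replicate 5 these were 0.14 for *Pcna*, 0.02 for *Uhrf1* and -0.07 for *E2f1*.

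Among the mitosis genes *Kif11* had the largest fitted difference, with another order of the samples than the rest. *Kif11* (chromosome 19, 37376403 to 37421859) had 114, 75 and 168 counts across wildtype replicates 3 to 5 and 159, 239 and 274 across *Pou4f3(Δ/+)* replicates 1 to 3, and a log2 CPM of 2.76, 2.41 and 3.32 and 3.19, 3.98 and 4.21. *Pou4f3(Δ/+)* replicates 2 and 3 were the highest, while wildtype replicate 5 lay above *Pou4f3(Δ/+)* replicate 1, so that the groups overlapped. The log2 fold change was 0.98 (SE 0.30, unadjusted p = 0.0103, adjusted p = 0.643 from edgeR), and 1.27 without wildtype replicate 5. Of the 40 genes it had the fewest counts, the largest range over samples (1.80 log2 units) and the highest standard error. It was listed with 1 transcript. *Gm15697*, looked at as a processed pseudogene resembling *Kif11*, had 2 to 17 counts per sample, and the sequences were not compared. Whether reads of *Kif11* were placed elsewhere was not tested. Without *Kif11* and without wildtype replicate 5, the mitosis mean differed by 0.03 between the genotypes, in place of 0.08 with *Kif11*.

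The cyclins and CDK1, which drive the entry to mitosis, had log2 fold changes of 0.07 to 0.25. *Ccna2* (chromosome 3, 36564865 to 36572150), which encodes cyclin A2, had a log2 CPM of 7.83, 7.86 and 7.48 in wildtype and 8.05, 8.04 and 7.83 in *Pou4f3(Δ/+)*. *Pou4f3(Δ/+)* replicates 1 and 2 were above all others and replicate 3 lay among the wildtype samples, and the log2 fold change was 0.25 (SE 0.11), or 0.14 without wildtype replicate 5. *Ccnb2*, *Cdk1* and *Ccnb1* had 0.13, 0.11 and 0.07, with standard errors of 0.09 to 0.12, and 0.04, -0.01 and -0.06 without wildtype replicate 5. *Ube2c* (chromosome 2, 164769898 to 164778822), of mitotic exit, had 6.96, 6.84 and 6.62 and 7.00, 6.82 and 6.69 log2 CPM. Its groups lay across one another, with *Pou4f3(Δ/+)* replicate 1 highest, and its log2 fold change was 0.03 (SE 0.11), or -0.06 without wildtype replicate 5 and -0.06 without *Pou4f3(Δ/+)* replicate 1. *Cdc20*, which activates the same ubiquitin ligase, had 0.05 (SE 0.10), or -0.01 without wildtype replicate 5. *Foxm1* and *Mybl2*, the transcription factors of this gene set, had 0.08 (SE 0.11) and 0.17 (SE 0.14), or -0.02 and 0.05 without wildtype replicate 5.

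*Birc5* (chromosome 11, 117849251 to 117855743) encodes survivin, which takes the Aurora B kinase to the centromere. Its log2 CPM was 6.42, 6.44 and 6.05 in wildtype and 6.63, 6.50 and 6.50 in *Pou4f3(Δ/+)*, the groups did not overlap, and the log2 fold change was 0.23 (SE 0.11), or 0.11 without wildtype replicate 5. *Top2a* (chromosome 11, 98992943 to 99024189) had 8.75, 8.70 and 8.43 and 8.93, 8.77 and 8.80. Wildtype replicate 3 and *Pou4f3(Δ/+)* replicate 2 were 0.02 apart, the groups did not overlap, and the log2 fold change was 0.20 (SE 0.10), or 0.11 without wildtype replicate 5. These were the only mitosis genes whose groups did not overlap. The mitotic kinases *Aurka*, *Bub1*, *Aurkb*, *Plk1* and *Bub1b*, the last with *Bub1* in the spindle checkpoint, had log2 fold changes of 0.19, 0.17, 0.10, 0.07 and -0.02. Without wildtype replicate 5 these were 0.12, 0.07, 0.06, 0.05 and -0.14, and *Aurka* had 0.06 without *Pou4f3(Δ/+)* replicate 1. The motors *Kif20a* and *Kif23*, which act in cytokinesis, had 0.13 and 0.07, and the spindle proteins *Tpx2* and *Nusap1* had 0.15 and 0.09. These 4 had -0.03, -0.02, 0.03 and -0.01 without wildtype replicate 5, and *Kif23* had a difference of 0.22 on log2(FPKM + 0.5) with all samples. Standard errors in these 9 genes were 0.08 to 0.13.

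*Mki67* (chromosome 7, 135689784 to 135716361) had a log2 CPM of 10.24, 10.33 and 9.91 in wildtype and 10.68, 10.23 and 10.29 in *Pou4f3(Δ/+)*. *Pou4f3(Δ/+)* replicate 1 lay above all others, while replicates 2 and 3 lay within 0.10 of wildtype replicates 3 and 4. The log2 fold change was 0.24 (SE 0.15), or 0.13 without wildtype replicate 5 and 0.09 without *Pou4f3(Δ/+)* replicate 1. The kinetochore genes *Cenpe*, a motor, and *Cenpf* had the same sample on top, with log2 fold changes of 0.23 (SE 0.13) and 0.20 (SE 0.16). Without *Pou4f3(Δ/+)* replicate 1 these were 0.08 and 0.05, and without wildtype replicate 5 0.15 and 0.07. These 3 genes have the longest main transcripts of the module, at least 7910 bases. In *Pou4f3(Δ/+)* replicate 1 their median log2 deviation from their own medians was 0.41, against 0.07 for the other 37 members. It was 0.05 for the 788 genes tested with main transcripts at least that long.

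The test was repeated on single transcripts. The 40 genes were listed with 199 transcripts, 103 of which were tested, and the top transcript of a gene held a median of 93.9% of its counts. In a test of all 38347 transcripts, edgeR called 0 member transcripts at an adjusted p under 0.05. At an unadjusted p under 0.05 there were 5 of the 103 tested, a share close to the 4.14% of all transcripts. The furthest of the 5, named after its values were seen, was ENSMUST00000108666 of *Aurkb*. It had 11.2, 12.1 and 28.9 counts in the wildtype and 73.2, 134.6 and 60.4 counts in the *Pou4f3(Δ/+)* samples. The groups did not overlap and the log2 fold change was 2.41 (SE 0.54, adjusted p = 0.999 from edgeR), but the transcript held 7.51% of the counts of *Aurkb*. Of the other 4, 2 were transcripts of *Cdc6*, 1 was of *Rrm2* and 1 of *Kif11*.

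Other genes of the cycle, from lists that do not share genes with the module, had fitted log2 fold changes above 0 for 35 of 36 S phase genes and 37 of 38 mitosis genes, against 49.4% of all genes. Of the 36, 6 had an unadjusted p under 0.05 in edgeR and were higher in *Pou4f3(Δ/+)*, against 3.5% of all genes in that direction and 7.64% in both, 0 were lower, and 0 passed the adjusted test. Of the 38 the counts were 7, 0 and 0, and DESeq2 called 0 in both lists. The median log2 fold changes were 0.15 and 0.16, and 0.01 and 0.06 without wildtype replicate 5. That sample was the lowest for 34 of the 36 and 35 of the 38, against 19% of all genes. *Prim1*, the primase subunit that starts each new strand, had a log2 fold change of 0.37 (SE 0.12), *E2f2*, of the E2F family, 0.30 (SE 0.10), and *Slbp*, which binds histone mRNA, 0.21 (SE 0.09). *Kif22*, a chromosome motor, had 0.26 (SE 0.09) and *Smc4*, of condensin, 0.27 (SE 0.09). These 5 had 0.25, 0.20, 0.12, 0.19 and 0.22 without wildtype replicate 5. All 5 had an adjusted p of 0.643 in edgeR.

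The fitted log2 fold change was above 0 for 6 of 10 G1 cyclins, kinases and regulators and for 16 of 18 tested cell cycle inhibitors and repressors, against 49.4% of all genes. Of the 10, 1 had an unadjusted p under 0.05 in edgeR, which was *Ccnd1*, the cyclin D1 gene, lower in *Pou4f3(Δ/+)*, and 0 passed the adjusted test. The log2 CPM of *Ccnd1* was 5.30, 5.55 and 5.65 in wildtype and 5.26, 5.03 and 5.13 in *Pou4f3(Δ/+)*, with wildtype replicate 5 the highest and no overlap of the groups, and the log2 fold change was -0.36 (SE 0.11, adjusted p = 0.643 from edgeR). *Ccnd3*, the most abundant gene of that list, had 0.22 (SE 0.13). Of the 18, 3 had an unadjusted p under 0.05 and were higher, *Btg2* (0.31), *Rb1* (0.26) and *Cdkn2d* (0.29), and 1 was lower, *Cdkn1c* (-0.47), against 3.5% higher and 4.14% lower of all genes. None passed the adjusted test in edgeR or DESeq2. *Rb1* restrains E2F, and the products of *Cdkn2d* and *Cdkn1c* restrain cyclin-dependent kinases. *Cdkn1b*, the most abundant of the inhibitors, had a log2 fold change of 0.02 (SE 0.07). Wildtype replicate 5 was the lowest sample for 6 of the 10 and 7 of the 18, against 19% of all genes.

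Markers of blood cell precursors also varied over these samples, and their part in the values of the cycle genes was not tested. The 12 tested erythroid markers, such as *Alas2*, had a mean log2 CPM of 7.96, 7.97 and 7.61 across wildtype replicates 3 to 5 and 8.48, 8.33 and 7.87 across *Pou4f3(Δ/+)* replicates 1 to 3, and wildtype replicate 5 was the lowest sample for 12 of the 12, against 19% of all genes. Their summed level was 8483 to 9883 CPM in wildtype and 9147 to 13107 CPM in *Pou4f3(Δ/+)*. The 13 precursor B cell markers had a mean of 3.25, 3.64 and 3.03 log2 CPM in wildtype and 4.35, 4.60 and 3.72 in *Pou4f3(Δ/+)*, and their summed level was 373 to 427 CPM in wildtype and 441 to 744 CPM in *Pou4f3(Δ/+)*. Of the 13, *Vpreb2* had too few counts to be tested. Wildtype replicate 5 was the lowest sample for 8 of the 12 tested, and 11 of the 12 had an unadjusted p under 0.05 in edgeR and were higher, against 3.5% of all genes in that direction. Of them 7 passed the adjusted test of DESeq2, against 0.374% of all genes, and 0 that of edgeR. For both lists *Pou4f3(Δ/+)* replicates 1 and 2 were the highest samples. T and NK cell markers had 2.06, 1.74 and 1.83 in wildtype and 2.74, 2.98 and 1.86 in *Pou4f3(Δ/+)*.

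In the means of the other marker lists wildtype replicate 5 was not the lowest sample. The 5 granulocyte progenitor markers, such as *Mpo* and *Elane*, had 8.91, 8.46 and 8.45 log2 CPM in wildtype and 8.05, 8.36 and 8.60 in *Pou4f3(Δ/+)*, and the 8 maturing neutrophil markers had 10.29, 10.01 and 10.29 and 10.08, 10.41 and 10.28. Wildtype replicate 5 was the lowest sample for 0 of the 5 and 0 of the 8. The 9 osteoblast markers had a mean of 6.94, 7.07 and 7.04 log2 CPM in wildtype and 6.57, 6.61 and 6.96 in *Pou4f3(Δ/+)*, so that wildtype replicates 4 and 5 were the highest. Their summed level was 2409 to 3488 CPM in wildtype, highest in replicate 5, and 2059 to 2223 CPM in *Pou4f3(Δ/+)*. Of the 9, 4 had an unadjusted p under 0.05 in edgeR and were lower in *Pou4f3(Δ/+)*, against 4.14% of all genes in that direction, 0 passed the adjusted test of edgeR and 1 that of DESeq2. The means of the macrophage, endothelial, Schwann cell and hair cell lists in wildtype replicate 5 were 6.32, 5.85, 8.29 and 3.30 log2 CPM, and that of the supporting cell list was 5.18.

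**Figure D5:**
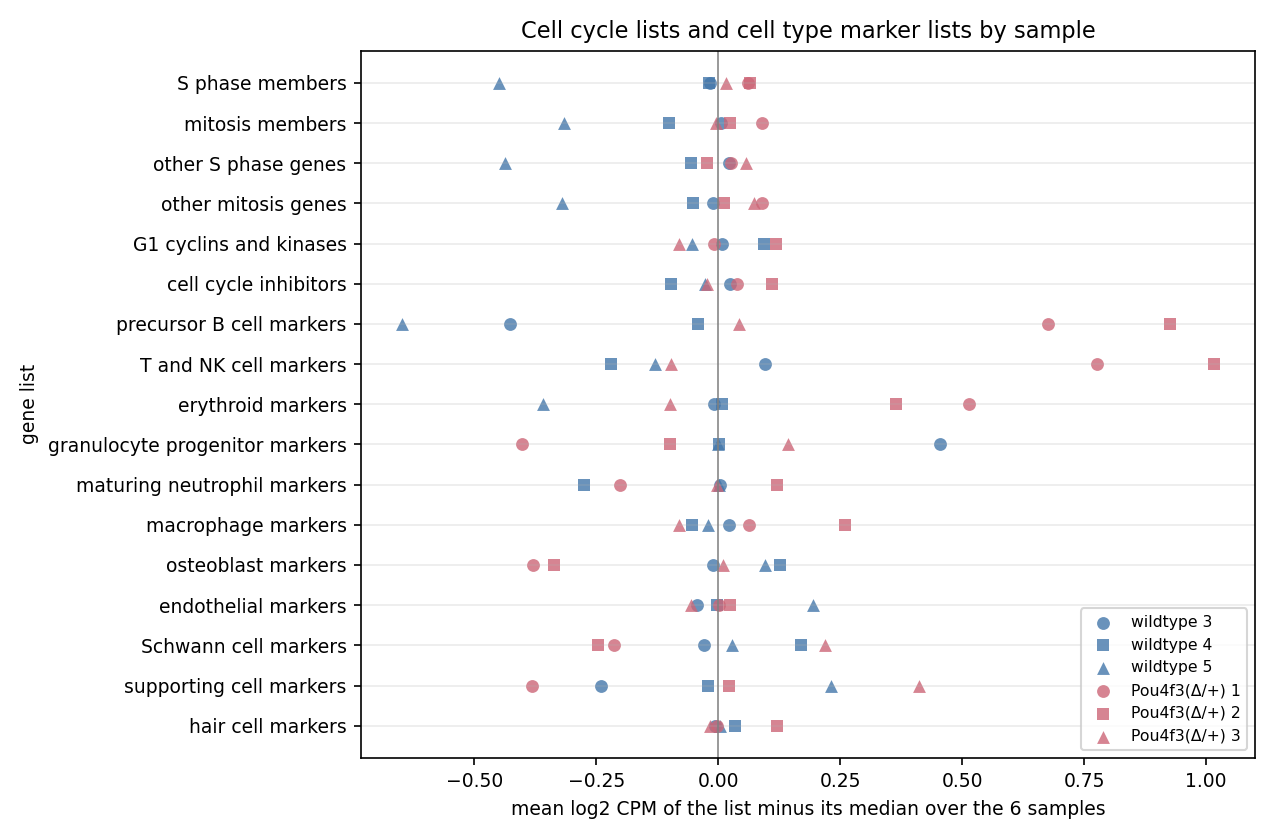
Mean log2 CPM of each gene list in each sample minus the median of that list over the 6 samples (3 wildtype samples in blue, 3 *Pou4f3(Δ/+)* samples in red). Wildtype replicate 5 lies at the left in the 4 S phase and mitosis lists and in the erythroid and precursor B cell lists, and *Pou4f3(Δ/+)* replicates 1 and 2 lie at the right in the precursor B cell, T and NK cell and erythroid lists.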

How the data were processed

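RNA-seq files of 6 cochlear samples were used, 3 wildtype and 3 *Pou4f3(Δ/+)*. For each transcript the authors deposited an expected count, estimated and often fractional, together with an FPKM value, scaled to transcript length and to the sample's counted fragments. The submitters' processing notes name DESeq2 and the build mm8. Library kits selected poly(A) RNA or removed rRNA, and which was used for a sample, the aligner and the counting program were not given in the sources used here. Coordinates are those of GENCODE M21 (GRCm38), found by transcript identifier.

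Counts and FPKM were summed over the transcripts of a gene symbol, and counts were rounded. edgeR 4.0.16 in R 4.3.3 gave the tests (filterByExpr with a minimum count of 10 and a minimum total of 15, TMM, quasi-likelihood test without covariates, Benjamini-Hochberg adjustment over all genes tested). Log2 CPM used a prior count of 2. The script was tested on simulated data, where it recovered 35.8% of 67 genes changed 1.5-fold. It recovered 71.6% of 67 changed 2-fold and 95.5% of 66 changed 4-fold, and it called 9 unchanged genes. Alternatives were DESeq2 1.42.0, its size factors, no filter, limma 3.58.1 on log2(FPKM + 0.5), also at pseudocounts of 0.1 and 1, other forms of the set mean, and samples left out in turn. Summed counts of 14295069 to 17696784 per sample set the precision, and a floor of 3 counts equals 0.170 to 0.210 CPM, for counting error only.

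The members and all lists were chosen with earlier results of these data known. Members with values in every sample are, per phase, the 4 with the smallest unadjusted p, the 3 with the highest mean FPKM and the one with the largest range. The exact E2F letters, the CCAAT box and the whole promoter entry were added after the data were seen. *Ahsp*, an erythroid marker, was not matched, and *Sgo1* was matched under its older symbol Sgol1. Of the erythroid list 1 gene is not reported here by name. A symbol shared by near-identical copies, such as those of the globins, cannot be split by these counts.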

Additional observations from a re-analysis of the deposited data

How the results depend on the processing

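Of the results above, the count of 0 members at an adjusted p under 0.05 held under all alternatives tried, with the smallest adjusted p of a member between 0.118 (DESeq2) and 0.964. Over all genes, 0 were called by edgeR, against 64 by DESeq2, 9 without a filter, 1 by limma on log2(FPKM + 0.1), 0 to 193 when a sample was left out (193 without *Pou4f3(Δ/+)* replicate 3, 3 without wildtype replicate 4) and 6 without *Pou4f3(Δ/+)* replicates 1 and 2 together, where the lone sample was assumed to vary like the wildtype. Genes at an unadjusted p under 0.05 numbered 1309, against 734 to 3038 when a sample was left out (3038 without *Pou4f3(Δ/+)* replicate 3, 771 and 734 without replicates 1 and 2 in turn, 749 without wildtype replicate 5) and 655 without *Pou4f3(Δ/+)* replicates 1 and 2. Members at an unadjusted p under 0.05 numbered 4, against 7 by DESeq2, 8 without a filter, 2 to 8 when a sample was left out (8 without wildtype replicate 4, 7 without *Pou4f3(Δ/+)* replicate 3, 2 without *Pou4f3(Δ/+)* replicate 1) and 1 without *Pou4f3(Δ/+)* replicates 1 and 2. The share of all genes at that p was 7.64%, against 6.73% by DESeq2, 7% without a filter, 6.12% without wildtype replicate 4, 17.4% without *Pou4f3(Δ/+)* replicate 3, 4.46% without *Pou4f3(Δ/+)* replicate 1 and 3.62% without *Pou4f3(Δ/+)* replicates 1 and 2. Members whose groups did not overlap numbered 9, against 10 to 20 when a sample was left out (20 without wildtype replicate 3, 14 without *Pou4f3(Δ/+)* replicate 3) and 15 without *Pou4f3(Δ/+)* replicates 1 and 2. Fewer samples make this easier: over all genes the share was 12.7% with all samples, 23.5% without wildtype replicate 3, 36.6% without *Pou4f3(Δ/+)* replicate 3, 22.5% and 19.4% without wildtype replicates 4 and 5 in turn, 20% and 19.5% without *Pou4f3(Δ/+)* replicates 1 and 2 in turn and 49.4% without both. Leaving out samples gave differences of 0.08 to 0.26 for the mean of all members, 0.07 to 0.28 for S phase and 0.08 to 0.24 for mitosis, the lowest each time without wildtype replicate 5, and the mitosis value was 0.0327 without that sample and *Kif11*, a setting chosen after seeing the data. With the median over members in place of the mean, the differences were 0.06 for all members, 0.21 for S phase, 0.11 for mitosis and -0.09 for mitosis minus S phase, against 0.19, 0.21, 0.17 and -0.04 with the mean. The fitted sign changed for 11 members without wildtype replicate 5, for 6 without *Pou4f3(Δ/+)* replicates 1 and 2, and for 0 to 3 under the others. The cause of these moves was not tested. No paired analysis was made, because the labels record no pairing of the samples.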
